A study of Mus musculus with 4 samples.

Results

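Heat shock proteins and endoplasmic reticulum (ER) chaperones are the proteins that fold, refold and sort other proteins. They were described here in the mouse aorta after chronic rosiglitazone, across 49 listed genes. The genes were found by matching each probe set's single gene symbol to the list, and 46 of the 49 had a probe set, out of 8251 genes named on the array. They carried 68 probe sets between them, and each gene was represented by its brightest probe set among those bright enough to test. Of the 46 genes, 41 passed that brightness filter. Hsp90ab1, Sdf2l1 and Hsf1 had no probe set with their symbol alone and were not analysed here.

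The study measured RNA on Affymetrix arrays in 4 samples of aorta from C57BL/6J mice, all of them adult males, with the RNA of several animals pooled in each. In the rosiglitazone group (arrays 1 and 2) mice had received 25 mg/kg of the drug daily for 21 days. In the vehicle group (arrays 3 and 4) mice had received vehicle for the same 21 days. Rosiglitazone is a thiazolidinedione that activates the nuclear receptor PPARγ. Whether replicate arrays hold separate pools, and how many mice went into a pool, is not in the labels. The p-values therefore measure only how far these arrays spread, and that spread may be technical.

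Chaperones work in compartments. In the cytosol, HSP70 and HSP90 proteins bind unfolded chains and use ATP to release them, J-domain proteins and other co-chaperones direct that cycle, and the ring-shaped chaperonin CCT folds actin and tubulin, which smooth muscle makes in large amounts. The cytosolic system is induced by heat shock factors that bind heat shock elements in DNA. In the ER, BiP (Hspa5) and its partners fold secreted and membrane proteins, such as the collagens and elastin of the vessel wall. When unfolded proteins accumulate there, the unfolded protein response acts through Xbp1, Atf4 and Atf6 to raise ER chaperone genes, many of which carry an ER stress element in the promoter.

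The results are set out by compartment, with the transcription factors apart, and not by promoter. Promoter sequences are shown for the elements named above. They are RefSeq sequences of the GRCm38.p6 assembly, read in the 250 bases upstream of the annotated start, and 39 of the 49 genes had an entry. The ER stress element was searched on both strands as CCAAT and CCACG with 9 bases between them or, in its form II, as ATTGG and CCACG with 1 base between them. At least 1 of these forms was found in 7 of 11 ER genes with an entry, in 0 of 22 cytosolic genes, 0 of 2 mitochondrial genes and 0 of 4 transcription factor genes, against 0.143% of all 32851 upstream windows. In the lines that follow, each window of 30 bases is written 5′ to 3′ on the strand of its gene, with the element in capitals.
Hspa5, chr2:34772020-34772049, plus strand: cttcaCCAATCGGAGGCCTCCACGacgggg
Hsp90b1, chr10:86705632-86705661, minus strand: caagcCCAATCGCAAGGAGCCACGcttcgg
Hsp90b1, chr10:86705527-86705556, minus strand: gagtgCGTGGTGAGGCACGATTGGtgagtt
Dnajc3, chr14:118937822-118937851, plus strand: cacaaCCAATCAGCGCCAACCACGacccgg
Calr, chr8:84847069-84847098, minus strand: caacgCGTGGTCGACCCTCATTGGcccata
Canx, chr11:50325794-50325823, minus strand: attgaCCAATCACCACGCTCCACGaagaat
Pdia6, chr12:17266486-17266515, plus strand: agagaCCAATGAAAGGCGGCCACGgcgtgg
Herpud1, chr8:94386368-94386397, plus strand: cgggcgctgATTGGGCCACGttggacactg
In Calr and at the second Hsp90b1 site the element reads on the opposite strand. Its distance upstream of the start ran from bases 52 to 42 in Herpud1, the form II element, up to bases 212 to 194 at the farther Hsp90b1 site. The whole upstream window of Hspa5 is given because BiP is the standard readout of ER stress, and that of Hsp90b1 because it alone held 2 matches. Only perfect matches were searched, so imperfect copies of the element, if any, are neither counted nor in capitals.
Hspa5, chr2:34771840-34772089, plus strand: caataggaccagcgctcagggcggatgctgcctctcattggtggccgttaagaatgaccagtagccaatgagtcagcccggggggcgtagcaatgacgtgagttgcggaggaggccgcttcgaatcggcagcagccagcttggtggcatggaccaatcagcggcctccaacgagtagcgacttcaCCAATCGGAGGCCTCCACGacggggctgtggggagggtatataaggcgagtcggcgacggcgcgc
Hsp90b1, chr10:86705445-86705694, minus strand: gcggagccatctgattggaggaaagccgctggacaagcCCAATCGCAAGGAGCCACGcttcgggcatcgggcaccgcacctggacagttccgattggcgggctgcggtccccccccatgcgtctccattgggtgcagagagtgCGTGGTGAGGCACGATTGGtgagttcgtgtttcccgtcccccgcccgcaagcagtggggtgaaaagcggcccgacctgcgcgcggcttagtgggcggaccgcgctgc

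The heat shock element was searched on both strands as 3 alternating units, GAA, TTC and GAA, with 2 bases between neighbours. It was found in 153 of 32851 upstream windows, or 0.466%, and among the listed genes in Hspe1 and Hspd1 alone, with 0 of 22 cytosolic genes. That the letters are absent says only that 3 perfect units do not stand in this window. Hspe1 and Hspd1 encode the mitochondrial chaperonin HSP10 and HSP60 and lie head to head on chromosome 1, on opposite strands. The same stretch lies upstream of Hspe1 and of 1 annotated Hspd1 start. The annotated Hspe1 start was separated by 215 bases from that Hspd1 start. It lay, as did the stretch, within the transcript from the other Hspd1 start, with 94 bases between the starts. Their shared element is shown because the pair is compared among the mitochondrial genes. The capitals mark 2 overlapping matches.
Hspe1, chr1:55088053-55088082, plus strand: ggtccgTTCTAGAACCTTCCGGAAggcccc

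The values are linear hybridisation intensities, 1 whole number per probe set and array. The median over all probe sets was 591 and 620 with rosiglitazone, against 648 and 635 with vehicle. Intensities under 148 were set to 148 before log2 was taken, and probe sets with a mean under 414 were not tested. No detection calls are in the table used here. Actin probe sets at the 3′ end were brighter than those at the 5′ end, a gauge of RNA integrity, by 7.74 and 9.63 times with rosiglitazone against 8.88 and 11.9 times with vehicle, and the groups overlapped. For Gapdh the same excess was 8.79 and 10.8 times with rosiglitazone against 11.1 and 11.1 times with vehicle, lower on both rosiglitazone arrays. The part of this difference in any chaperone value was not tested. Of 12 smooth muscle markers 9 had a probe set, all above the filter, and all 9 had a log2 fold change below 0, with a summed intensity of 62070 and 70225 with rosiglitazone against 126987 and 151334 with vehicle. Of 10 macrophage markers tested 10 were below 0, with sums of 21669 and 20885 with rosiglitazone against 61561 and 66854 with vehicle. Neutrophil markers had the widest gap of the 8 marker lists, with sums of 12122 and 9965 with rosiglitazone against 134450 and 199740 with vehicle, 9 of 10 tested below 0 and 2 past the threshold. Of 7 brown adipocyte markers tested 6 were above 0, with sums of 412321 and 450320 with rosiglitazone against 296339 and 291518 with vehicle. White adipocyte markers had sums of 355482 and 368411 with rosiglitazone against 246198 and 257436 with vehicle, with 4 of 7 tested above 0. None of the measured markers of these cell types was under the floor of 148 on all arrays. In pooled tissue, fewer cells of a type and less RNA per cell cannot be told apart, and the part of these shifts in any chaperone value was not tested.

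Chaperone transcripts showed small differences between rosiglitazone and vehicle aortas, none of them past the test. No chaperone gene (0 of 41) passed an adjusted p of 0.05 in limma, where 0.364% of the 7134 probe sets tested did. The median log2 fold change was 0.03 over the 41 genes and -0.02 over all 5466 genes tested. In 40 of 41 the fold change was under 2-fold (1 on the log2 scale), or 97.6%, against 89.4% of all genes, and the exception was Pdia6 at 1.56. An unadjusted p under 0.05 was reached by 2 of the 41, Hsp90aa1 and Hspd1, or 4.88%, against 10.9% of probe sets. The arrays of the groups did not overlap for 4 chaperone genes that were higher with rosiglitazone and for 9 that were lower, or 9.76% and 22.0%, beside 19.0% and 21.8% of probe sets.

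**Figure D1:**
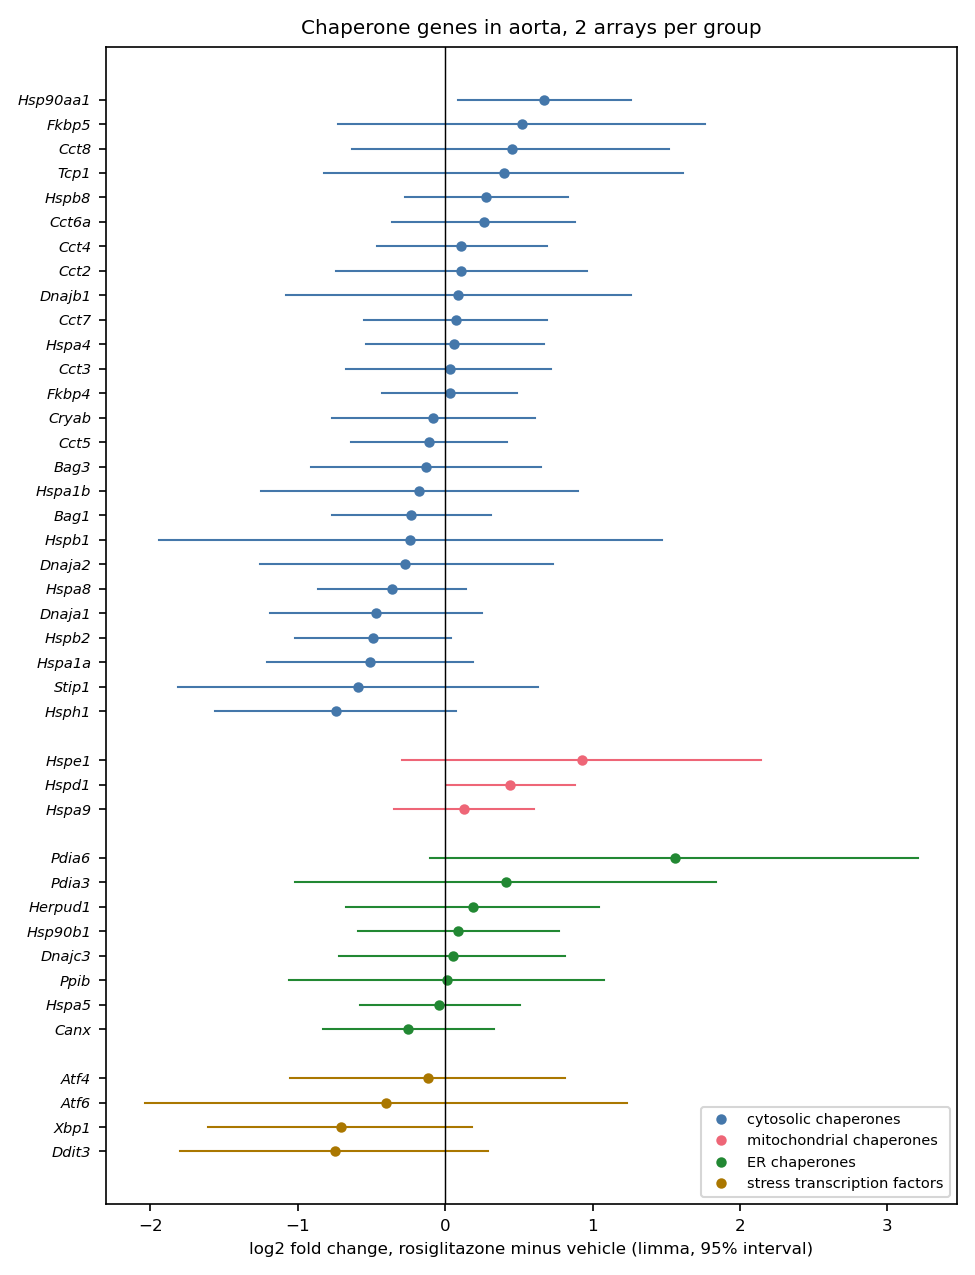
Log2 fold change of rosiglitazone over vehicle for the 41 chaperone genes tested, from limma on 2 arrays per group; points are estimates and lines are 95% intervals, coloured by compartment. Pdia6 is the only point beyond 1, and the intervals of Hsp90aa1 and Hspd1 alone leave out 0.

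How much these arrays could have missed is given by the intervals. For 19 of the 41 genes, or 46.3%, the 95% interval of the brightest probe set lay wholly between -1 and 1. On that probe set a change of 2-fold was outside the interval. For all genes this share was 30.5%. The 19 included Hspa5, Hsp90b1, Canx and Dnajc3 of the ER, Hspa8, Hspa4 and Hspb8 of the cytosol, Hspd1 and Hspa9 of the mitochondrion, and 6 CCT subunits. It included none (0) of the 4 transcription factors, whose intervals reached from -2.04 to 1.23 for Atf6. For the other 22 genes a change of 2-fold in at least 1 direction lay within the interval. Among the 19, some further tested probe sets had intervals that reached past 2-fold. These included Hspa4 from -1.67 to 0.38, Dnajc3 from -2.09 to 0.73, Canx from -1.3 to 1.23 and Hspd1 from -0.23 to 1.62.

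Among the large cytosolic chaperones, Hsp90aa1 lay above 0, while 4 of the other 5 genes, of the HSP70 and HSP110 type, lay below. Hsp90aa1, the stress-inducible HSP90, had intensities of 6504 and 4638 with rosiglitazone against 3521 and 3372 with vehicle. Both rosiglitazone arrays were the higher ones, with a log2 fold change of 0.67 (95% interval 0.09 to 1.26), which did not pass (adjusted p = 0.383 in limma). It was 0.43 without rosiglitazone replicate 1 and ran up to 0.92 with another array left out. Hsph1, the HSP110 that exchanges nucleotide on HSP70, had 1239 and 932 with rosiglitazone against 1984 and 1633 with vehicle. Here both rosiglitazone arrays were the lower ones, at -0.74 (-1.56 to 0.07, adjusted p = 0.506), and from -0.95 to -0.54 with 1 array left out. Hspa1a, an inducible HSP70, had 1564 and 1391 with rosiglitazone against 2077 and 2115 with vehicle, without overlap, at -0.51 (-1.21 to 0.19, adjusted p = 0.606). Hspa1b, its near-identical neighbour, had 817 and 680 with rosiglitazone against 890 and 796 with vehicle, groups that overlapped, at -0.18. Probes for Hspa1a and Hspa1b may read transcripts of either gene, so their values are uncertain as to gene. Hspa8, the constitutive HSP70, had 7381 and 7838 with rosiglitazone against 8612 and 11027 with vehicle, lower without overlap, at -0.36 (-0.86 to 0.14). Hspa4, an HSP110 relative, was near 0 at 0.06 on its brightest probe set, with 3 tested probe sets running from -0.64 to 0.11. The 6 genes of this group had a median of -0.27, with 4 below 0.

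The testis-enriched HSP70 Hspa2 lay at 56 and 53 with rosiglitazone against 200 and 17 with vehicle, below the filter.

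Small heat shock proteins, which hold unfolded proteins without ATP, went in different directions. Hspb2, a muscle member that lies beside Cryab, had 3907 and 3772 with rosiglitazone against 5875 and 4942 with vehicle, at -0.49 (-1.02 to 0.04, adjusted p = 0.505). Hspb8, the partner of Bag3 in sorting proteins to autophagy, had 4396 and 4131 with rosiglitazone against 3749 and 3267 with vehicle, at 0.28. The groups overlapped in neither gene. Cryab, αB-crystallin, had 1688 and 1959 with rosiglitazone against 1918 and 1925 with vehicle, overlapping at -0.08. Hspb1 had 346 and 452 with rosiglitazone against 472 and 460 with vehicle, close to the filter, at -0.24 with an interval from -1.94 to 1.47. Smooth muscle markers were lower with rosiglitazone on the same arrays (9 of 9, median -1.12), and skeletal muscle markers were split (4 of 8 above 0, median -0.09). Their part in the values of these muscle-rich chaperones was not tested.

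The co-chaperones had fold changes from -0.59 to 0.52 with a median of -0.18. Groups overlapped for 7 of 8, beside 3222 of all 5466 genes. Stip1, the adaptor that passes clients from HSP70 to HSP90, was the one without overlap, at 606 and 494 with rosiglitazone against 723 and 939 with vehicle, or -0.59 (-1.81 to 0.63, adjusted p = 0.755). Fkbp5, an HSP90-bound immunophilin induced by glucocorticoids, had 1059 and 1014 with rosiglitazone against 1181 and 445 with vehicle. Its log2 fold change of 0.52 was set by vehicle replicate 4, the lowest array, and was -0.19 without it. Fkbp4, the related immunophilin, had 10621 and 11009 with rosiglitazone against 10017 and 11202 with vehicle, at 0.03 with an interval from -0.43 to 0.49. Its other tested probe set had 2339 and 2214 with rosiglitazone against 1793 and 1441 with vehicle, higher without overlap at 0.50. Of the J-domain proteins that stimulate HSP70, Dnaja1 was at -0.47, Dnaja2 at -0.27 and Dnajb1 at 0.09, and the HSP70 nucleotide exchange factors Bag1 and Bag3 were at -0.23 and -0.13.

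The 8 subunits of the chaperonin CCT lay close to one another. Their fold changes ran from -0.11 for Cct5 to 0.45 for Cct8, and the median was 0.11. All 8 had overlapping groups, as did 3222 of all 5466 genes. With each array centred on its median, and with quantile normalization, 7 of the 8 were above 0, as with the deposited values. The count depended on single arrays, at 4 of 8 without rosiglitazone replicate 1 and 3 of 8 without vehicle replicate 3, and 6 of 8 with either other array left out. Cct8 had 1151 and 1155 with rosiglitazone against 589 and 1215 with vehicle, so that its fold change rested on vehicle replicate 3, and it was -0.08 when vehicle replicate 3 was left out. Tcp1, the alpha subunit, had 1508 and 633 with rosiglitazone against 819 and 674 with vehicle, where rosiglitazone replicate 1 alone stood high. Cct4 had 4048 and 5485 with rosiglitazone against 4118 and 4610 with vehicle, at 0.11 (-0.46 to 0.69). Cct7 had 6310 and 7467 with rosiglitazone against 5135 and 8331 with vehicle, at 0.07 (-0.55 to 0.69). The contractile genes whose products include the actin that CCT folds were lower with rosiglitazone (smooth muscle markers, median -1.12), while CCT transcripts were within 0.45 of 0 on the log2 scale. The difference between these lists was not tested.

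All 26 cytosolic genes tested had a median of -0.03, 13 above 0 and 13 below. The split was 7 above and 19 below without vehicle replicate 3, and 11 above and 15 below with any 1 other array left out. Median centring of the arrays turned the cytosolic median to 0.06, and the median of all 5466 genes from -0.02 to 0.06. The sign of the cytosolic median thus depends on the scaling.

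**Figure D2:**
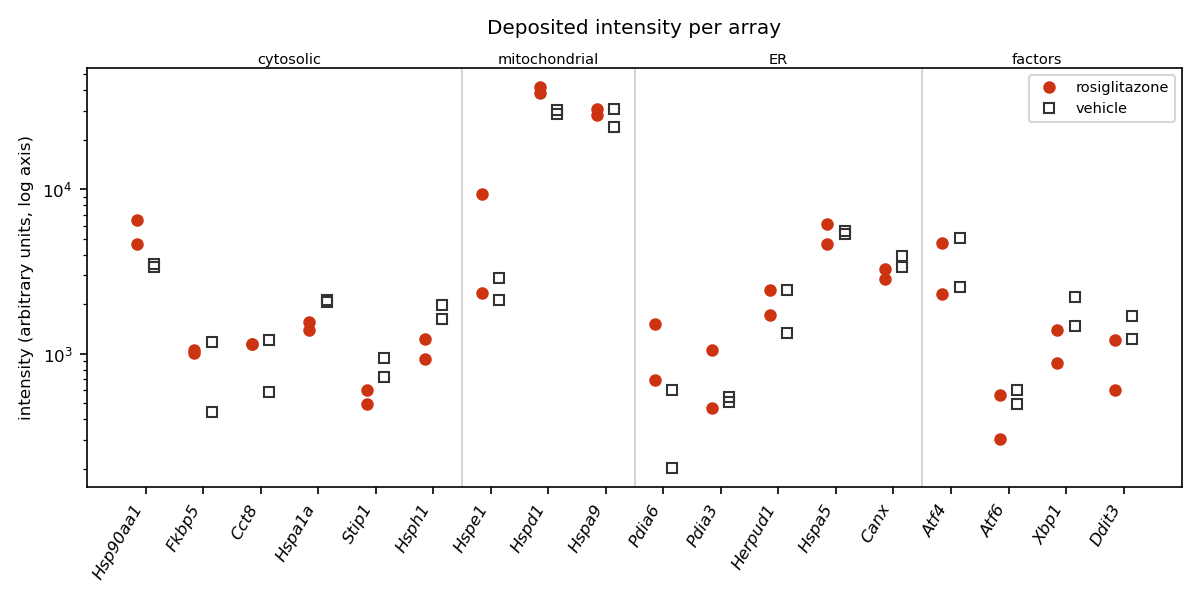
Deposited intensity on a log axis for 18 chaperone genes, by compartment; filled circles are the 2 rosiglitazone arrays and open squares the 2 vehicle arrays. Hspd1, Hsp90aa1 and Pdia6 show both rosiglitazone arrays above both vehicle arrays, while the Hspe1 difference comes from a single rosiglitazone array at 9389.

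The 3 mitochondrial chaperones were all above 0, with a median log2 fold change of 0.44, and they stayed above 0 with median centring and quantile normalization. Without rosiglitazone replicate 1, and without vehicle replicate 4, 2 of the 3 were above 0, and the median was 0.19 in the first case. Hspd1, HSP60, which folds imported proteins inside a double ring, had 38314 and 41953 with rosiglitazone against 30420 and 28552 with vehicle. Both rosiglitazone arrays were the higher ones and the arrays of each group lay close together, at 0.44 (0.01 to 0.88, unadjusted p = 0.0473, adjusted p = 0.453 in limma). A second Hspd1 probe set was at 0.70, with overlapping groups. Leaving out 1 array at a time gave 0.38 to 0.51. Hspe1, HSP10, the lid of that ring, had 9389 and 2359 with rosiglitazone against 2895 and 2116 with vehicle, and the groups overlapped. Its log2 fold change of 0.93 was decided by rosiglitazone replicate 1. It was -0.07 without that array, and without rosiglitazone replicate 2 it was 1.92 and was the only chaperone gene to pass in any of the settings tried. Hspa9, the mitochondrial HSP70 (mortalin) that pulls proteins through the inner membrane, had 28361 and 30978 with rosiglitazone against 30908 and 23801 with vehicle, at 0.13 (-0.35 to 0.60), or -0.06 without vehicle replicate 4. Thus Hspd1 and Hspe1, which share the element shown above, were alike in sign and unlike in how the arrays bore it out. Brown adipocyte markers, from a cell type rich in mitochondria, were higher on the same rosiglitazone arrays (6 of 7 above 0, median 0.44), and their part in the mitochondrial chaperone values was not tested.

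Further mitochondrial protein quality genes were described from a list of 13, of which 6 were tested and 0 passed. Grpel1, the nucleotide exchange factor of Hspa9, had 4912 and 3552 with rosiglitazone against 2718 and 2362 with vehicle, higher without overlap, at 0.72 (unadjusted p = 0.028, adjusted p = 0.383). Phb2, a prohibitin of the inner membrane, had 6298 and 6297 with rosiglitazone against 4721 and 5215 with vehicle, at 0.34. Dnaja3, the J-domain partner of Hspa9, was at 0.18. The proteases Htra2 and Lonp1 were at -0.24 and -0.23, and the 6 genes had a median of 0.13.

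In the ER, the main chaperones had fold changes close to 0. Hspa5, BiP, had 6150 and 4644 with rosiglitazone against 5341 and 5617 with vehicle. The vehicle arrays lay between the rosiglitazone arrays, at -0.04 with an interval from -0.58 to 0.51. Hsp90b1, the ER form of HSP90 (GRP94), had 5243 and 3049 with rosiglitazone against 3629 and 3882 with vehicle, likewise bracketed, at 0.09 (-0.59 to 0.77). Dnajc3, a BiP co-chaperone that also inhibits the kinase PERK, had 2023 and 1412 with rosiglitazone against 1683 and 1593 with vehicle, at 0.05, with its 3 tested probe sets from -0.68 to 0.05. Herpud1, an ER-associated degradation protein that ER stress induces, had 1719 and 2455 with rosiglitazone against 1342 and 2428 with vehicle, at 0.19, or -0.24 without vehicle replicate 3 and -0.07 without rosiglitazone replicate 2. Hyou1, the ER HSP110, was listed at 15 and 19 with rosiglitazone against 21 and 10 with vehicle, under the floor on all arrays, and allows no comparison.

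Lectin chaperones and folding enzymes of the ER were more uneven. Canx, calnexin, which holds glycoproteins at the membrane, had 2835 and 3301 with rosiglitazone against 3391 and 3906 with vehicle, lower without overlap, at -0.25 (-0.83 to 0.33, adjusted p = 0.783). Its other probe set overlapped, at -0.04. Ppib, cyclophilin B, a prolyl isomerase that acts on collagen, had 5107 and 1576 with rosiglitazone against 2847 and 2803 with vehicle. Its rosiglitazone arrays lay on either side of closely matched vehicle arrays, at 0.01 with an interval from -1.06 to 1.08. Pdia3, a disulfide isomerase that works with calnexin, had 1053 and 466 with rosiglitazone against 543 and 509 with vehicle, at 0.41, or -0.17 without rosiglitazone replicate 1. Pdia6, another disulfide isomerase, had the largest fold change of the 41 genes and the least agreement between its own probe sets. On the brightest it had 694 and 1527 with rosiglitazone against 607 and 202 with vehicle, at 1.56 (-0.10 to 3.21, adjusted p = 0.488), with 0.76 without vehicle replicate 4 and 0.99 without rosiglitazone replicate 2. On the other tested probe set it had 852 and 169 with rosiglitazone against 808 and 560 with vehicle, at -0.83 (-2.78 to 1.12), and the remaining probe set, at 926 and 139 with rosiglitazone against 257 and 89 with vehicle, lay below the filter. Pdia6 therefore has no settled direction here. Calr, calreticulin, had 77 and 448 with rosiglitazone against 70 and 156 with vehicle, and Pdia4 had 222 and 506 with rosiglitazone against 203 and 450 with vehicle. Both lay below the filter, with overlapping groups, and in each the second rosiglitazone array was the highest.

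The 8 ER genes tested had a median of 0.07, from -0.25 to 1.56, with 6 above 0. Without rosiglitazone replicate 1 this median was -0.19, with 2 of 8 above 0, and it was 0.39 when rosiglitazone replicate 2 was left out instead. Set beside the sequences given above, the genes with an ER stress element that were tested had fold changes of -0.04 (Hspa5), 0.09 (Hsp90b1), 0.05 (Dnajc3), -0.25 (Canx), 1.56 (Pdia6) and 0.19 (Herpud1). On these probe sets the groups overlapped in 4 of the 6, beside 3222 of all 5466 genes. In the others, Canx and Pdia6, a further tested probe set had overlapping groups, at -0.04 and -0.83. For Dnajc3, counted among the 4, a further tested probe set was lower without overlap, at -0.68.

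The transcription factors of the unfolded protein response lay below 0, 4 of 4 tested. Their median was -0.56 on the log2 scale, and 0 of 4 passed. All 4 stayed below 0 with median centring and with quantile normalization, and 3 of 4 were below 0 without rosiglitazone replicate 1, rosiglitazone replicate 2 or vehicle replicate 3. Xbp1, which is spliced by IRE1 and then raises ER chaperones, had 1397 and 876 with rosiglitazone against 1485 and 2217 with vehicle, at -0.71 (-1.61 to 0.18, adjusted p = 0.568). Ddit3 (CHOP), the factor linked to cell death under prolonged ER stress, had 599 and 1211 with rosiglitazone against 1223 and 1688 with vehicle, at -0.75 (-1.80 to 0.29, adjusted p = 0.606). Neither overlapped, although for Ddit3 the higher rosiglitazone array all but met the lower vehicle array. Leaving out 1 array gave -1.05 to -0.38 for Xbp1 and -1.26 to -0.25 for Ddit3. Atf6, an ER membrane protein whose cut fragment enters the nucleus, had 304 and 559 with rosiglitazone against 600 and 496 with vehicle, overlapping at -0.40, or 0.04 without rosiglitazone replicate 1. Atf4, which is controlled mainly at translation, had 4714 and 2307 with rosiglitazone against 5033 and 2551 with vehicle. In each group 1 array was about as high above the other as in the other group, and the fold change of -0.12 became 0.40 without rosiglitazone replicate 2 and 0.37 without vehicle replicate 3. These are transcript levels of whole genes, and neither Xbp1 splicing nor the amount of Atf4 or Atf6 protein was measured. Macrophage markers, 10 of 10 below 0 with a median of -1.13, and neutrophil markers, 9 of 10 below 0 with a median of -0.61, were lower on the same rosiglitazone arrays. Their part in the Xbp1 and Ddit3 values was not tested. Hsf2, a heat shock factor, had 108 and 111 with rosiglitazone against 44 and 157 with vehicle, below the filter.

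A wider list of 48 ER chaperone and unfolded protein response genes gave 33 tested, of which 0 passed. Their median was 0.09, with 19 above 0 and 14 below. An unadjusted p under 0.05 in limma was reached by 4 of the 33, beside 11.0% of all genes. Ero1a, the oxidase that recharges disulfide isomerases, had 1730 and 1635 with rosiglitazone against 3511 and 3393 with vehicle. The arrays of each group lay close together and far from those of the other group, at -1.04 (unadjusted p = 0.00428, adjusted p = 0.173 in limma). Asns, asparagine synthetase, a target of Atf4, had 12167 and 9362 with rosiglitazone against 5193 and 6171 with vehicle. It was higher without overlap at 0.91 (unadjusted p = 0.0033, adjusted p = 0.157 in limma). Ero1a and Asns each had 2 probe sets, and only the brightest tested one is described here. Dnajb11, a J-domain partner of BiP, had 395 and 785 with rosiglitazone against 1125 and 1158 with vehicle, at -1.04 (adjusted p = 0.528). The disulfide isomerase Txndc5 was at -0.91, with 571 and 603 with rosiglitazone against 605 and 2012 with vehicle, where 1 vehicle array carried the difference. Ppp1r15a (GADD34), which reverses the translational block of the unfolded protein response, was at 0.64 with an interval from -0.69 to 1.98. Sel1l, of the degradation machinery, was at 0.89 (-0.71 to 2.5). It had 716 and 884 with rosiglitazone against 768 and 239 with vehicle, so that the groups overlapped and 1 vehicle array carried the difference. Asns and Ddit3, both known targets of Atf4, were at 0.91 and -0.75. Neither passed, the Ddit3 interval (-1.80 to 0.29) held 0, and the difference between the 2 genes was not tested.

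The list of 34 other cytosolic chaperone genes gave 21 tested, 0 passed and a median of -0.06. Its outermost members were Hspa4l, an HSP110 relative, at 0.73, with 984 and 1053 with rosiglitazone against 516 and 730 with vehicle, and the J-domain protein Dnajb2 at -0.80, with 899 and 1333 with rosiglitazone against 1892 and 1927 with vehicle. Neither passed (adjusted p = 0.636 and 0.467). Dnajc5 and the prefoldin subunit Pfdn5 were at 0.45 and 0.35, and the prefoldin subunits Pfdn2 and Vbp1 at -0.60 and -0.44. Groups overlapped for Dnajc5, with 704 and 713 with rosiglitazone against 271 and 990 with vehicle. They overlapped for Pfdn2, with 337 and 1562 with rosiglitazone against 891 and 1365 with vehicle, and for Vbp1, but not for Pfdn5.

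**Figure D3:**
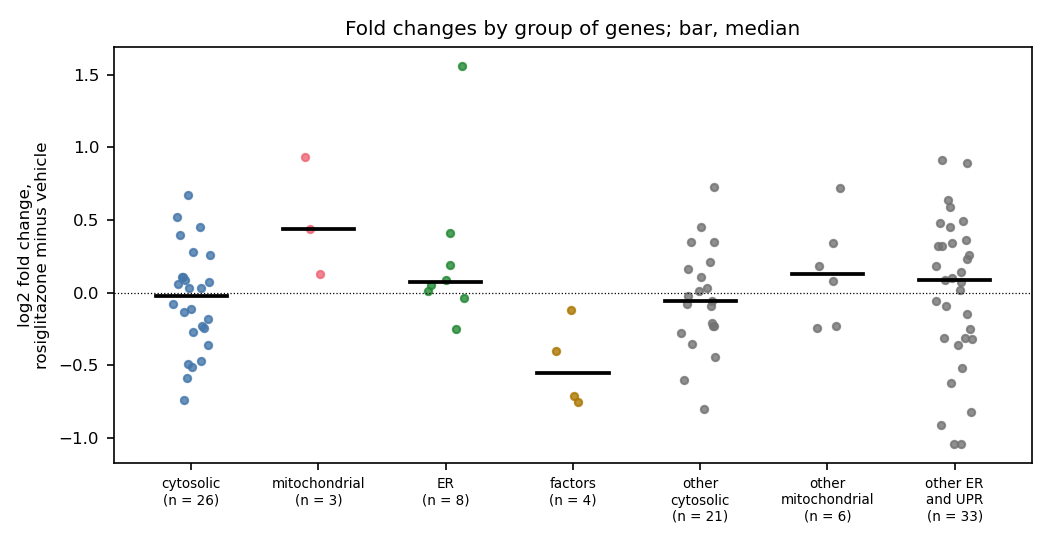
Log2 fold change of rosiglitazone over vehicle for each tested chaperone gene by class (coloured) and for the 3 wider lists (grey); each point is a gene and each bar a median, from 2 arrays per group. Medians lie between -0.56 for the unfolded protein response factors and 0.44 for the mitochondrial chaperones, with the cytosolic and ER classes at -0.03 and 0.07.

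Arrays of the same group differed by more than 2-fold for several chaperone genes. Between the rosiglitazone arrays this held for 7 of 41 genes, or 17.1%, against 15.4% of all genes. The 7 were Atf4, Ddit3, Hspe1, Pdia3, Pdia6, Ppib and Tcp1. In 5 of them rosiglitazone replicate 1 was the higher, beside 434 of 841 among all genes. Between the vehicle arrays it held for 4 of 41, or 9.76%, against 12.5% of all genes, namely Cct8, Dnajb1, Fkbp5 and Pdia6. Over the 41 genes the median log2 gap was 0.39 between the rosiglitazone arrays and 0.25 between the vehicle arrays. Over all genes these gaps were 0.41 and 0.34. For 25 of the 41 genes the log2 fold change, sign aside, was no larger than that median rosiglitazone gap of 0.39. Each gene's own gap was not used in this count, and the same count was not made over all genes.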

How the data were processed

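RNA from 2 rosiglitazone and 2 vehicle samples of pooled aorta had been hybridised to Affymetrix MG-U74Av2 arrays. The deposited values are linear intensities, and the software and background correction behind them are not given in the sources used here. Trimmed means (2% off each end) were 1501 on every array, so the deposited values share a common scale. The largest gap between array medians was 0.13 on the log2 scale, under a limit of 0.2, and no further scaling was made. Of 12488 probe sets, 66 controls were left out. Names came from the platform table, updated through GRCm38.p6 gene identifiers (0 changed), and 10833 probe sets had 1 symbol, 396 several and 1193 none listed. Values under 148 (20th percentile) were raised to it, log2 was taken, and the 7134 probe sets with a mean of at least 414 (40th percentile) were tested in R 4.3.3 with limma 3.58.1 (lmFit, eBayes with an intensity trend, 2 residual degrees of freedom), two-sided, with Benjamini-Hochberg adjustment over all of them. The procedure was tested on simulated data. Intensities of different probe sets are not comparable as levels. The number of arrays limits the precision.

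The members and lists were chosen with earlier results of these data known. Arrays are given for the 3 largest rises and falls among cytosolic and ER genes, all mitochondrial genes and factors, and genes with discordant probe sets, and the wider lists give their 3 largest rises and falls. Values of further listed genes were added after they were seen. Alternatives tried were median centring, quantile normalization, other floors, no filter, no trend, averaging probe sets, and leaving out each array.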

Additional observations from a re-analysis of the deposited data

How the results depend on the processing

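Chaperone genes past the threshold numbered 0 with the deposited values, and 0 in each alternative except 1 without rosiglitazone replicate 2 (Hspe1), so that leaving out 1 array gave 0 to 1. The count at an unadjusted p under 0.05 in limma was 2, and it depended on the setting. It was 2 with median centring, 1 with quantile normalization and 0 without the intensity trend. Without the filter it was 4, and with the floor at the 40th percentile 3, each of 46 genes. Taking any tested probe set of a gene, an alternative chosen after seeing the data, also gave 0. Over all probe sets 26 passed, against 0 without the filter, 0 with the floor at the 40th percentile (which lets every probe set through), 7 without the intensity trend and 1 to 78 with 1 array left out (1 without vehicle replicate 3 or vehicle replicate 4, 47 without rosiglitazone replicate 1, 78 without rosiglitazone replicate 2). The cause was not tested. The cytosolic median of -0.03 was 0.06 with median centring, -0.08 without the filter and -0.10 to -0.05 with 1 array left out. The mitochondrial median of 0.44 was 0.53 with median centring, 0.35 with quantile normalization, 0.57 with probe sets averaged and 0.19 to 0.49 with 1 array left out. The ER median of 0.07 ran from -0.19 to 0.39 with 1 array left out. The factor median of -0.56 was -0.48 with median centring, -0.48 with quantile normalization, -0.40 without the filter, -0.18 with the floor at the 40th percentile (which brings in Hsf2, for 5 genes) and -0.63 to -0.44 with 1 array left out. ER genes above 0 were 6 of 8, or 75.0%, with the deposited values, 7 of 8, or 87.5%, with median centring, and 2 of 8, or 25.0%, without rosiglitazone replicate 1. Of all genes, 48.2%, 55.0% and 50.4% were above 0 in the same settings, and their median with median centring was 0.06. Of 201 values of 18 genes under alternatives, 13 changed sign. Dropping the filter or the intensity trend leaves a fold change as it is, so those values could not change sign. Apart from Hspa5 with median centring, every change of sign came with an array left out. With 1 array left out, ranges that crossed 0 were -0.64 to 0.40 for Atf4, -0.84 to 0.04 for Atf6, -0.08 to 0.97 for Cct8, -0.19 to 1.22 for Fkbp5, -0.24 to 0.61 for Herpud1, -0.24 to 0.17 for Hspa5, -0.06 to 0.32 for Hspa9, -0.07 to 1.92 for Hspe1 and -0.17 to 1.0 for Pdia3. Hspa5 was 0.05 with median centring. No paired analysis was possible because the groups share no replicate number.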
